A study of Mus musculus with 12 samples.

Results

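The Toll-like receptors (TLRs) are the membrane receptors with which macrophages sense microbial lipids, proteins and nucleic acids. The family was taken by gene symbol as Tlr1, Tlr2, Tlr3, Tlr4, Tlr6, Tlr7, Tlr8, Tlr9 and Tlr13, 9 of the 18190 genes of an RNA-seq table of RAW264.7 cells, an established mouse macrophage line. All 9 were in the table and 8 passed the filter on low values, Tlr8 being the exception. RAW264.7 cells that stably expressed either a DCLK1 shRNA (shDCLK1 cells) or a negative control shRNA (control cells) were collected either without treatment or after a 6 h exposure to lipopolysaccharide (LPS) at 500 ng/ml. Each of the 4 groups had 3 libraries. DCLK1 is doublecortin-like kinase 1. Each line was monoclonal, so the comparison of lines is also a comparison of 1 clone with 1 other clone, and the effect of the shRNA and a difference between clones cannot be told apart. The strain is labelled C57BL/6, whereas RAW264.7 is known as a line of BALB/c origin, and the control samples are labelled as having no knockdown although the protocol gives them the control shRNA.

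TLR4 senses LPS, with MD-2 (Ly96) and CD14 as partners. TLR2 pairs with TLR1 or TLR6 at the cell surface to sense bacterial lipopeptides. The other members work in endosomes, where TLR3 senses double-stranded RNA, TLR7 single-stranded RNA, TLR9 unmethylated CpG DNA and TLR13 a stretch of bacterial ribosomal RNA. The chaperone UNC93B1 carries the endosomal receptors out of the endoplasmic reticulum. MyD88 is the adaptor of all of them but TLR3, which signals through TRIF (Ticam1), an adaptor that TLR4 also uses.

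Values are the deposited FPKM (fragment counts scaled by transcript length and library size), a level per length that can be compared between genes. They are given per library in the order of replicates 1, 2 and 3 or as mean ± SD (n = 3). Changes are differences of log2(FPKM + 1), which understates the change of low genes, with 95% intervals and adjusted p-values from limma over all 11052 genes tested. Changes with an adjusted p under 0.05 were called. The labels do not say that the replicates were separate cultures, and p-values therefore reflect only how far these libraries spread, which may be technical. In RNA from whole cultures, a change in the share of cells that express a gene and a change in RNA per cell cannot be told apart. Summed over genes, a library held 457695 to 495373 FPKM, 10119 to 10619 genes reached 1 FPKM, and libraries of a group correlated at r of 0.993 to 0.996. Read totals were not given. Il1b, a gene induced by LPS, lay at 0.04 to 1.53 FPKM in the 6 untreated libraries and at 1133 to 1203 in the 6 treated ones. Dclk1 itself was at most 0.01 FPKM in either line and was listed at 0 in 9 libraries, so its knockdown could not be checked from these values. All 9 macrophage markers on the list used were detected in every group, with Spi1 at 191 ± 7.26 and Cd68 at 319 ± 3.91 FPKM in untreated control cells. Calls of these markers also differed between the lines. Without LPS 7 of the 9 were higher in shDCLK1 than in control cells and 1 was lower, Adgre1 (log2 difference -0.51, adjusted p = 6.02e-07). Of all genes tested, 21.4% were called higher and 23.6% lower in that comparison. With LPS 5 markers were higher and 3 lower, beside 34.3% and 14.3% of all genes. The summed level of the markers was 988 to 990 FPKM in untreated control cells and 1099 to 1114 with LPS. In shDCLK1 cells it was 1632 to 1677 untreated and 1943 to 2033 with LPS. Most of the difference of that sum between the lines was Lyz2 (lysozyme). This gene measured 97.4 ± 3.61 FPKM in untreated and 206 ± 4.87 in treated control cells. In shDCLK1 cells it measured 642 ± 9.35 untreated and 966 ± 43.0 with LPS. Lyz2 was 6.60-fold higher in shDCLK1 cells without LPS (log2 difference 2.71, adjusted p = 6.10e-14). Csf1r, the receptor of the macrophage growth factor CSF1, was 15.7-fold lower with LPS in control cells (log2 change -3.89, adjusted p = 1.77e-17) and, with LPS, 4.12-fold higher in shDCLK1 than in control cells (1.98, adjusted p = 2.72e-13). Their part in the differences of the receptors was not tested. Summed markers of B cells reached at most 1.42 FPKM in any library, those of T cells 1.07, of epithelium 0.48, of fibroblasts 0.45 and of neutrophils 4.39. Some listed markers had no entry: 4 of 5 were present for B cells, 3 of 4 each for epithelium and fibroblasts, and 2 of 4 for neutrophils. The neutrophil marker S100a8 was at 0 FPKM in both untreated groups. With LPS it measured 1.9 ± 0.16 in control and 2.98 ± 1.23 in shDCLK1 cells. A list for plasmacytoid dendritic cells, other users of TLR7 and TLR9, summed to 147 to 148 FPKM in untreated control cells, 721 to 745 with LPS, 333 to 368 in untreated shDCLK1 cells and 764 to 833 with LPS. Most of that sum was Bst2, which macrophages also express and which was higher in untreated shDCLK1 than in untreated control cells (log2 difference 1.42, adjusted p = 1.06e-10). Siglech was lower with LPS in both lines (10.1 ± 0.840 untreated against 4.87 ± 0.117 FPKM with LPS in control cells, 13.3 ± 0.355 against 4.27 ± 0.528 in shDCLK1 cells). It was higher in untreated shDCLK1 than in untreated control cells (0.37, adjusted p = 0.00108), and its log2 change with LPS in control cells was -0.92. Tcf4 had group means of 17.5 to 18.7 FPKM and was called in no comparison, and Ccr9 reached 0.38 FPKM at most. The part of such cells in the values below was not tested.

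Promoter sequences of 5 members are shown first, from RefSeq on GRCm38.p6: Tlr2 and Tlr3 for their κB matches, the Tlr6 window with matches to an interferon-response motif, and Tlr9 and Tlr13 as receptors that LPS raised and lowered, respectively, while both hold the PU.1/ETS core. Each run is the 250 bases before an annotated start, 5′ to 3′ on the strand of the gene, and capitals mark matches to 5 motifs searched on both strands. The motifs were the κB site of NF-κB, the interferon-stimulated response element (ISRE), the PU.1/ETS core GAGGAA, the AP-1 site TGANTCA and the GAS element TTCNNNGAA. Windows with at least 1 match made up 7.25% (κB), 2.98% (ISRE), 23.3% (GAGGAA), 6.75% (TGANTCA) and 7.02% (TTCNNNGAA) of all 32851 promoter windows of the same length.
Tlr2 promoter (chr3:83841609-83841858, minus strand): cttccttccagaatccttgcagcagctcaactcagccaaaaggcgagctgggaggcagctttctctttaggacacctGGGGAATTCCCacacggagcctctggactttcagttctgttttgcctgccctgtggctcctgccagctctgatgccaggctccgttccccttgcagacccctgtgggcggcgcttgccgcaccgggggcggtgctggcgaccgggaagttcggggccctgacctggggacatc
Tlr3 promoter (chr8:45410381-45410630, minus strand): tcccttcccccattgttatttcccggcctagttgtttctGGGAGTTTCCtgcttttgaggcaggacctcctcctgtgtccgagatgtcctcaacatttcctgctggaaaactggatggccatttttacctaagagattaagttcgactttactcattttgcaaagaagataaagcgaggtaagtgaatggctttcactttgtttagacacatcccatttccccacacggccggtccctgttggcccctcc
Tlr6 promoter, the first of 2 windows (chr5:64959167-64959416, minus strand): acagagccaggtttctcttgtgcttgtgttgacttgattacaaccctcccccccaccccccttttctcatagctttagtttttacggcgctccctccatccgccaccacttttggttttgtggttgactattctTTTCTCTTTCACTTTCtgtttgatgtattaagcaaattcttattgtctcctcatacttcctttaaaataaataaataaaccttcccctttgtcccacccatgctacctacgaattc
Tlr9 promoter (chr9:106222348-106222597, plus strand): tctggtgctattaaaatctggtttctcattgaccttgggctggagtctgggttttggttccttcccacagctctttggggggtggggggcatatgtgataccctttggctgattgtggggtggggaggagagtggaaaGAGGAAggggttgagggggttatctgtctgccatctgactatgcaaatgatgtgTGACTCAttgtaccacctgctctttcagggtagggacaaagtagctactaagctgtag
Tlr13 promoter (chrX:106143025-106143274, plus strand): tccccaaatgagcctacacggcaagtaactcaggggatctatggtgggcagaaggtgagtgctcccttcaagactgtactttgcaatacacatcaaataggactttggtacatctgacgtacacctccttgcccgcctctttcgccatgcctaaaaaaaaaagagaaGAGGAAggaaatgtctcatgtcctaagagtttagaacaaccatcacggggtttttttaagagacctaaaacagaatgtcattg

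Promoter entries matched 7 of the 9 members, all but Tlr4 and Tlr7, with 9 windows in all. The κB site was matched in the windows of Tlr2 and Tlr3. In Tlr2 it was a pair of overlapping matches that begin 173 and 172 bases before the start, and in Tlr3 a single match that begins 211 bases before it. The 2 overlapping ISRE matches in the Tlr6 window read on the strand opposite to the gene, between 116 and 101 bases before the start. GAGGAA, the core bound by the macrophage factor PU.1, was matched in Tlr9, Tlr13, Tlr8 and 1 of the 2 Tlr1 windows. Tlr9 also held TGANTCA, 58 to 52 bases before the start, and Tlr8 and the second Tlr1 window held TTCNNNGAA. A match is a description of letters and not a site shown to be bound.

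TLR transcripts summed to 113 ± 3.31 FPKM in untreated control cells, 144 ± 2.88 in control cells with LPS, 160 ± 2.94 in untreated shDCLK1 cells and 176 ± 6.43 in shDCLK1 cells with LPS. Tlr2 was the most abundant in every group by level per length and made up 66.3 ± 0.897%, 55.9 ± 0.739%, 57.9 ± 0.795% and 53.0 ± 0.454% of those sums. Tlr5, the flagellin receptor, was at most 0.02 FPKM and listed at 0 in 9 libraries. A search by symbol returned no entry for Tlr11 or Tlr12, so they were not analysed here. In untreated control cells the order below Tlr2 was Tlr9, Tlr13, Tlr7, Tlr1, Tlr4, Tlr6, Tlr3 and Tlr8, and only the neighbours Tlr13 and Tlr7 overlapped in range. In control cells with LPS it was Tlr9, Tlr3, Tlr7, Tlr1, Tlr6, Tlr13, Tlr4 and Tlr8, with Tlr13 and Tlr4 overlapping. In untreated shDCLK1 cells it was Tlr7, Tlr13, Tlr1, Tlr9, Tlr4, Tlr6, Tlr3 and Tlr8, where Tlr9 overlapped with Tlr1 and with Tlr4. In shDCLK1 cells with LPS it was Tlr3, Tlr9, Tlr7, Tlr1, Tlr6, Tlr13, Tlr4 and Tlr8, with Tlr3 and Tlr9 overlapping. The endosomal receptors together (Tlr3, Tlr7, Tlr8, Tlr9 and Tlr13) went from 23.9 ± 1.14 to 47.4 ± 0.212 FPKM with LPS in control cells and from 45.5 ± 1.10 to 61.9 ± 0.658 in shDCLK1 cells.

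**Figure D1:**
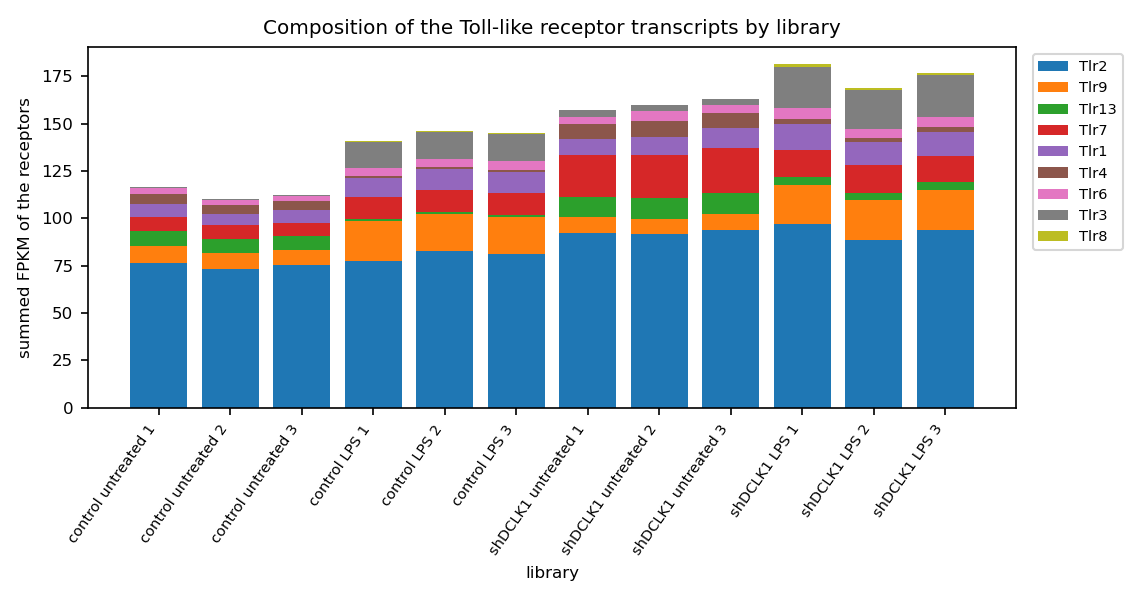
Summed FPKM of the 9 receptors (vertical axis) in each of the 12 libraries (horizontal axis), with 1 colour for each receptor. Tlr2 fills the lower part of every bar, and the bars of untreated control cells are the lowest, at 110 to 117 FPKM.

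LPS moved the receptors in opposite directions, and the untreated shDCLK1 cells already held more of most of them. In control cells LPS raised 6 of the 8 tested members (Tlr1, Tlr2, Tlr3, Tlr6, Tlr7, Tlr9) and lowered Tlr4 and Tlr13, where 24.8% of all genes tested were called higher and 62.1% lower. In shDCLK1 cells it raised 4 (Tlr1, Tlr3, Tlr6, Tlr9), lowered 3 (Tlr4, Tlr7, Tlr13) and left the change of Tlr2 below the threshold, against 24.9% of all genes called higher and 59.7% lower. Without LPS, 7 of the 8 were higher in shDCLK1 than in control cells, Tlr9 being the exception, where 21.4% of all genes were called higher and 23.6% lower. With LPS the same 7 were called higher, where 34.3% of all genes were called higher and 14.3% lower. No tested member was lower in shDCLK1 cells in either limma comparison, also at an unadjusted p under 0.05. The interaction, which asks whether the log2 LPS response differed between the lines, was called for 4 members. It was positive for Tlr13, which on the log2 scale fell less with LPS in shDCLK1 than in control cells. It was negative for Tlr1 and Tlr3, which on that scale rose less in shDCLK1 cells, and for Tlr7, which rose in control and fell in shDCLK1 cells. Of all genes, 32.6% had a called positive and 16.9% a called negative interaction.

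The median log2 change of the tested members was 0.52 for LPS in control cells and 0.15 in shDCLK1 cells, beside -0.38 and -0.29 for all genes tested. For shDCLK1 against control it was 0.50 without and 0.31 with LPS, beside -0.02 and 0.07, and for the interaction -0.13 beside 0.09. These comparisons share groups, so their values are given side by side and not correlated. The median of all genes depends on the scale: after median-of-ratios scaling it was -0.01 for LPS in control cells and 0.00 in shDCLK1 cells, and the split of genes called higher and lower went from 2741 and 6863 to 4708 and 4728 in control cells and from 2747 and 6602 to 4548 and 4562 in shDCLK1 cells. That scaling centres the changes of all genes by design, so the small medians and the near-even splits largely follow from it. With that scaling the split for shDCLK1 against control with LPS went from 3788 and 1583 to 2573 and 2892, and for the interaction from 3601 and 1863 to 2534 and 2608. Relative to the median of all genes as deposited, the LPS change of Tlr4 was -1.11 in control and -1.13 in shDCLK1 cells, and that of Tlr13 was -1.57 and -0.92.

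**Figure D2:**
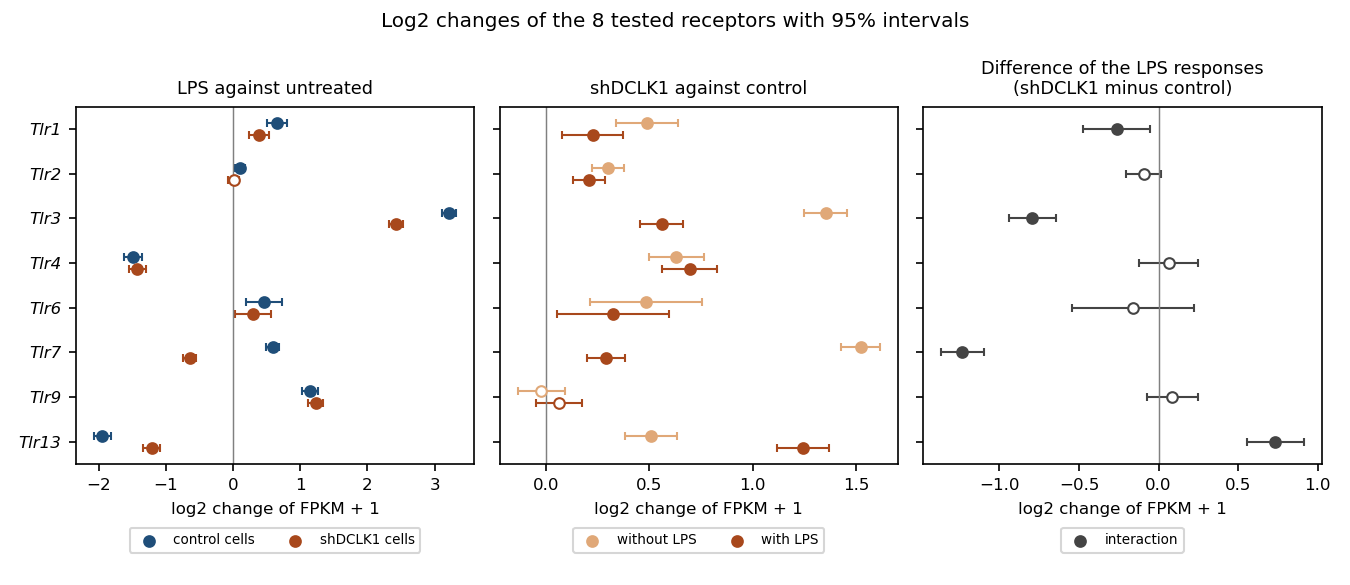
Log2 changes of FPKM + 1 (horizontal axes) of the 8 tested receptors (vertical axis), with 95% intervals from limma and 3 libraries a group; filled circles were called at an adjusted p under 0.05 and open circles were not. Tlr7 lies at 0.59 with LPS in control cells and at -0.64 in shDCLK1 cells, and Tlr4 and Tlr13 lie below 0 in both.

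Tlr4, the LPS receptor, was lower with LPS in both lines and higher in shDCLK1 cells in both states. It measured 4.88, 4.84 and 4.96 FPKM in untreated control cells and 1.18, 1.03 and 1.11 with LPS. In shDCLK1 cells it measured 7.79, 8.55 and 8.04 untreated and 2.64, 2.15 and 2.45 with LPS. No pair of groups overlapped, and every treated library of either line lay below every untreated library of both. The mean was 4.42-fold lower with LPS in control cells (log2 change -1.48, 95% interval -1.62 to -1.35, adjusted p = 6.35e-11) and 3.37-fold lower in shDCLK1 cells (-1.42, -1.55 to -1.29, adjusted p = 1.41e-10). Between the lines the shDCLK1 mean was 1.66-fold higher without LPS (log2 difference 0.63, adjusted p = 3.95e-06) and 2.18-fold higher with it (0.69, adjusted p = 1.42e-06). The interaction was 0.06 (-0.12 to 0.25, adjusted p = 0.561), and with a pseudocount of 0.1 in place of 1 it was 0.34 and called (adjusted p = 0.0296).

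**Figure D3:**
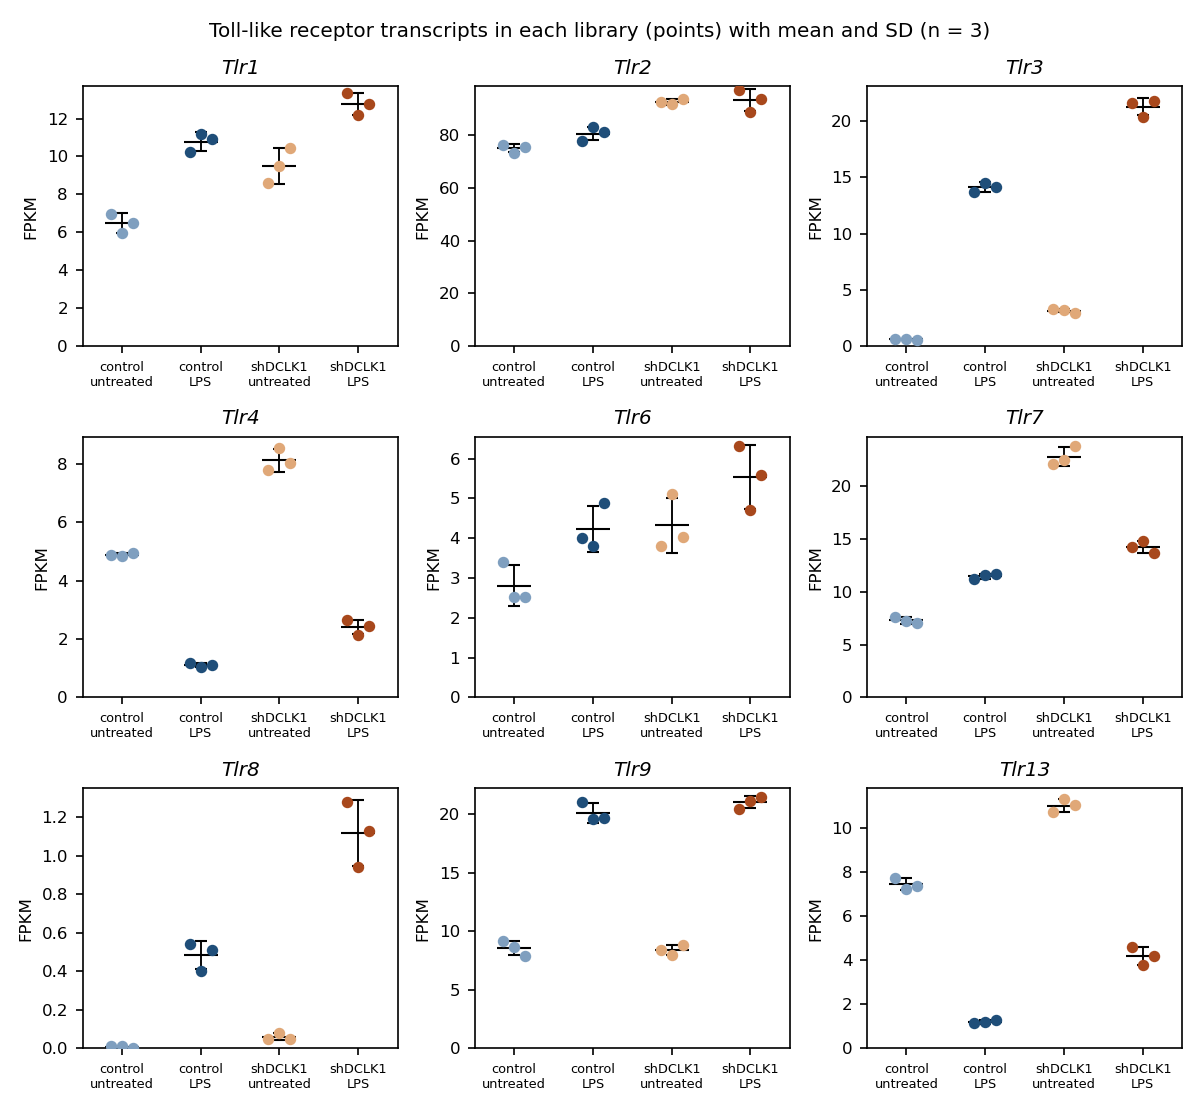
FPKM (vertical axes, each from 0) of the 9 receptors in the 4 groups (horizontal axes); points are libraries and black bars the mean with SD (n = 3). Tlr7 is highest in untreated shDCLK1 cells (22.1 to 23.9 FPKM), Tlr4 and Tlr13 are lower with LPS in both lines, and Tlr9 differs by treatment but not beyond its spread by line.

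Tlr2, whose protein forms the lipopeptide receptors, held a level that differed little with LPS and more with the line. In untreated control cells it measured 76.29, 73.16 and 75.41 FPKM, and with LPS 77.67, 82.8 and 81. In untreated shDCLK1 cells it measured 92.32, 91.54 and 93.75, and with LPS 96.98, 88.64 and 93.64. All shDCLK1 libraries lay above all control libraries, while the treated and untreated shDCLK1 libraries overlapped. Without LPS the shDCLK1 mean was 1.23-fold that of control cells (log2 difference 0.30, 0.22 to 0.38, adjusted p = 2.51e-05), and with LPS 1.16-fold (0.21, 0.13 to 0.28, adjusted p = 0.000432). LPS changed it by 0.10 in control cells (0.02 to 0.18, adjusted p = 0.0174) and by 0.01 in shDCLK1 cells (-0.07 to 0.08, adjusted p = 0.850). These LPS changes rest on the scale: in control cells the value was 0.52 (adjusted p = 1.45e-08) after median-of-ratios scaling and 0.05 (adjusted p = 0.159) after quantile normalization, and in shDCLK1 cells 0.33 (adjusted p = 1.52e-06) and -0.01 (adjusted p = 0.785). Without replicate 2 of the untreated or of the treated control cells the control value missed the threshold (adjusted p = 0.0668 and 0.0755).

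Tlr1 and Tlr6, the partners of TLR2, lie next to each other on chromosome 5 with 0 protein-coding genes between them in RefSeq. They also share sequence: 14.8% of the 50-base stretches of the Tlr1 transcripts occurred in Tlr6 and 12.3% of those of Tlr6 in Tlr1 (GENCODE M21), while no other pair of members shared any. How the authors assigned reads between the pair is not given in the sources used here, so their values are uncertain to that extent.

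Tlr1 measured 6.98, 5.96 and 6.52 FPKM in untreated control cells and 10.22, 11.18 and 10.92 with LPS. In shDCLK1 cells it measured 8.59, 9.49 and 10.47 untreated and 13.33, 12.17 and 12.79 with LPS. Treated libraries lay above untreated ones in both lines, and shDCLK1 libraries above control libraries in both states. LPS raised it 1.66-fold in control cells (log2 change 0.65, 0.51 to 0.80, adjusted p = 1.04e-06) and 1.34-fold in shDCLK1 cells (0.39, 0.24 to 0.54, adjusted p = 0.000146). The shDCLK1 mean was 1.47-fold higher without LPS (log2 difference 0.49, adjusted p = 0.000101) and 1.18-fold with it (0.23, adjusted p = 0.0161). The difference with LPS missed the threshold after median-of-ratios scaling (0.14, adjusted p = 0.102) and without replicate 1 of the treated control or of the treated shDCLK1 cells (adjusted p = 0.0641 and 0.0614). The interaction of -0.26 (-0.47 to -0.05, adjusted p = 0.0388) was lost when any one of replicates 2 and 3 of the 4 groups was left out (adjusted p from 0.0603 to 0.0927).

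Tlr6 followed Tlr1 at a lower level and with a wider spread. It measured 3.4, 2.51 and 2.51 FPKM in untreated control cells and 4, 3.8 and 4.88 with LPS, and in shDCLK1 cells 3.81, 5.12 and 4.03 untreated and 6.31, 4.71 and 5.6 with LPS. Only the untreated control group stood apart from the other groups, which overlapped. The mean was 1.51-fold higher with LPS in control cells (log2 change 0.46, 0.19 to 0.73, adjusted p = 0.00382), and 1.54-fold higher in untreated shDCLK1 than in untreated control cells (0.48, 0.21 to 0.75, adjusted p = 0.00722). The change with LPS in shDCLK1 cells (0.30, adjusted p = 0.0399) and the difference between the lines with LPS (0.32, adjusted p = 0.0491) were called although the libraries overlapped. The first was lost without replicate 1 or 3 of either shDCLK1 group (adjusted p from 0.0854 to 0.156), and the second without any one of 7 libraries (adjusted p from 0.0528 to 0.179), which were replicates 2 and 3 of the untreated and 1 and 2 of the treated control cells, and replicate 3 of the untreated and 1 and 3 of the treated shDCLK1 cells. The second was also lost after median-of-ratios scaling (0.25, adjusted p = 0.112), and both were lost without a filter on low values (adjusted p = 0.0820 and 0.106). The interaction was -0.16 (-0.54 to 0.22, adjusted p = 0.473).

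Tlr3, the receptor of double-stranded RNA, had the largest change with LPS among the tested members in both lines. It measured 0.63, 0.69 and 0.57 FPKM in untreated control cells and 13.67, 14.54 and 14.14 with LPS. In shDCLK1 cells it measured 3.28, 3.23 and 2.98 untreated and 21.64, 20.38 and 21.78 with LPS. The 4 groups did not overlap, and untreated shDCLK1 cells lay between the untreated and the treated control cells. LPS raised the mean 22.4-fold in control cells (log2 change 3.21, 3.11 to 3.32, adjusted p = 3.53e-15) and 6.72-fold in shDCLK1 cells (2.42, 2.31 to 2.52, adjusted p = 9.71e-14). Between the lines it was 5.02-fold higher in shDCLK1 cells without LPS (1.35, adjusted p = 3.34e-10) and 1.51-fold higher with LPS (0.56, adjusted p = 1.33e-06). The log2 response was therefore smaller in shDCLK1 cells, with an interaction of -0.79 (-0.94 to -0.65, adjusted p = 1.40e-06), or -1.57 with a pseudocount of 0.1, while the level reached with LPS was higher.

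Tlr7, the receptor of single-stranded RNA, was raised by LPS in control cells and lowered by it in shDCLK1 cells. In control cells it measured 7.65, 7.2 and 7.06 FPKM untreated and 11.2, 11.58 and 11.65 with LPS. In shDCLK1 cells it measured 22.12, 22.53 and 23.85 untreated and 14.25, 14.85 and 13.65 with LPS. The groups did not overlap, and the levels of the lines lay closer together with LPS than without it. LPS changed it by a log2 value of 0.59 in control cells (1.57-fold higher, 0.49 to 0.68, adjusted p = 2.69e-08) and of -0.64 in shDCLK1 cells (1.60-fold lower, -0.74 to -0.55, adjusted p = 1.29e-08). The interaction of -1.23 (-1.36 to -1.10, adjusted p = 1.06e-08) was the largest in size among the tested members at a pseudocount of 1. That ranking depends on the pseudocount, which shrinks the change of Tlr3, at 0.63 FPKM in untreated control cells. Under median-of-ratios scaling the LPS changes of Tlr7 were 0.97 and -0.33 and its interaction -1.30, each still called. The excess in shDCLK1 cells was 3.13-fold without LPS (log2 difference 1.52, adjusted p = 3.82e-11) and 1.24-fold with LPS (0.29, adjusted p = 0.000141).

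Tlr8, the neighbour of Tlr7 on chromosome X with 0 protein-coding genes between them, was the lowest member. It measured 0.01, 0.01 and 0 FPKM in untreated control cells and 0.54, 0.4 and 0.51 with LPS, and in shDCLK1 cells 0.05, 0.08 and 0.05 untreated and 1.28, 0.94 and 1.13 with LPS. The groups did not overlap, but only 2 libraries reached 1 FPKM, so it was left out of the tests. With LPS the shDCLK1 mean was 2.31-fold that of control cells, and no fold is given against the untreated control cells, where 1 library is listed at 0. In a fit with no filter, the log2 change with LPS was 0.56 in control cells (adjusted p = 3.71e-06) and 0.99 in the shDCLK1 line (adjusted p = 3.38e-08), with an interaction of 0.44 (adjusted p = 0.00151). At these levels the values on this scale depend on the pseudocount, so no direction is drawn from the interaction.

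Tlr9, the receptor of CpG DNA, was raised by LPS in both lines and was the tested member for which neither comparison of the lines was called. It measured 9.14, 8.66 and 7.88 FPKM in untreated control cells and 21.07, 19.57 and 19.65 with LPS, and in shDCLK1 cells 8.43, 7.97 and 8.78 untreated and 20.47, 21.13 and 21.48 with LPS. Treated libraries lay above untreated ones, and the lines overlapped in each state. LPS raised it 2.35-fold in control cells (log2 change 1.14, 1.03 to 1.26, adjusted p = 2.05e-10) and 2.51-fold in shDCLK1 cells (1.23, 1.12 to 1.34, adjusted p = 1.37e-10). The log2 difference between the lines was -0.02 without LPS (-0.14 to 0.09, adjusted p = 0.736) and 0.06 with it (-0.05 to 0.18, adjusted p = 0.347), and the interaction was 0.09 (-0.07 to 0.25, adjusted p = 0.351).

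Tlr13, which senses bacterial ribosomal RNA and is also on chromosome X, was lowered by LPS in both lines. It measured 7.73, 7.21 and 7.38 FPKM in untreated control cells and 1.13, 1.18 and 1.27 with LPS. In shDCLK1 cells it measured 10.71, 11.29 and 11.03 untreated and 4.61, 3.8 and 4.19 with LPS. No groups overlapped, and the treated control libraries were the lowest. The mean was 6.23-fold lower with LPS in control cells (log2 change -1.94, -2.07 to -1.82, adjusted p = 2.70e-12) and 2.62-fold lower in shDCLK1 cells (-1.21, -1.34 to -1.08, adjusted p = 4.58e-10). The interaction of 0.73 (0.56 to 0.91, adjusted p = 1.36e-05) was the one positive call among the tested members. The shDCLK1 mean was 1.48-fold that of control cells without LPS (log2 difference 0.51, adjusted p = 1.79e-05) and 3.52-fold with it (1.24, adjusted p = 6.12e-09), the largest difference between the lines with LPS among the tested members.

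Among the tested members the profiles of Tlr1 and Tlr6 were nearest to each other over the 12 libraries, with a root mean square distance of 0.15 between centred log2 profiles and r = 0.89. Tlr1 and Tlr6 are also the pair that shares transcript stretches. By distance Tlr4 and Tlr13 came next (0.21, r = 0.98), and their genes lie on different chromosomes, 4 and X. By r the order differed, as Tlr1 and Tlr3 had r = 0.93 at a distance of 1.20. Over all tested genes and by distance, the nearest to Tlr3 were Fosl1 (0.08), Myc (0.14) and Serpinb9 (0.16), all with r above 0.99. The nearest to Tlr13 were Trem2, a lipid receptor of macrophages (0.10), Cd300lb (0.16) and Slc27a1 (0.16), and to Tlr4 Idh1 (0.10), Pcdhgc3 (0.10) and Gpr137b (0.12). Tlr9 was nearest to Dus2 (0.07), Tbc1d13 (0.08) and Tbk1 (0.09), the kinase that acts below TRIF. Tlr7 had the most distant neighbours, Rgs1 (0.18), Gdpd1 (0.21) and Slamf8 (0.22). Tlr1 was nearest to Lpp, Dcp2 and Renbp (0.08 to 0.09), Tlr2 to Atp8a1, Prkaa1 and Galnt7 (0.05 to 0.06), and Tlr6 to Degs1, Myo10 and Slc45a3 (0.13 to 0.14). The 12 points of each correlation share libraries and 4 group means.

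As a reference for the list counts from here on, LPS raised 24.8% of all genes tested and lowered 62.1% in control cells. In shDCLK1 cells the shares were 24.9% and 59.7%. For shDCLK1 against control they were 21.4% higher and 23.6% lower without LPS, and 34.3% and 14.3% with it. Of 6 listed co-receptors and receptor homologues 5 were tested, and LPS raised 3 and lowered 1 in control cells, and raised 2 and lowered 2 in shDCLK1 cells. After median-of-ratios scaling the control count was 5 raised and 0 lowered, and the shDCLK1 count of lowered genes was 1. Cd14, which passes LPS to TLR4, went from 149 ± 3.59 to 2727 ± 21.6 FPKM in control cells (log2 change 4.19, adjusted p = 1.71e-17) and from 166 ± 5.09 to 2610.1 ± 72.5 in shDCLK1 cells (3.97, adjusted p = 8.53e-17). Ly96, the MD-2 partner of TLR4, rose from 6.83 ± 0.803 to 11.5 ± 1.19 in control cells (0.68, adjusted p = 1.65e-05), and its change of 0.16 in shDCLK1 cells was not called (adjusted p = 0.128). Cd36, a co-receptor of TLR2 with TLR6, was higher in shDCLK1 cells in both states, with log2 differences of 0.68 (adjusted p = 7.46e-08) and 1.04 (adjusted p = 2.10e-09). Without LPS 3 of the 5 were higher in shDCLK1 cells and 0 lower, and with LPS 1 was higher and 2 lower.

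Of the 8 chaperones and traffic factors, LPS raised 4 and lowered 3 in control cells, and raised 3 and lowered 5 in shDCLK1 cells (5 and 3 after median-of-ratios scaling). Unc93b1, the chaperone of the endosomal receptors, rose from 99.6 ± 3.15 to 223 ± 2.81 FPKM in control cells (log2 change 1.16, adjusted p = 4.94e-12) and from 144 ± 5.19 to 219.6 ± 9.07 in shDCLK1 cells (0.60, adjusted p = 5.09e-09), an interaction of -0.55 (adjusted p = 2.87e-06). Cnpy3, a chaperone needed by most TLRs, fell by 1.41 in control (adjusted p = 2.23e-13) and by 1.21 in shDCLK1 cells (adjusted p = 1.57e-12). Slc15a4, an endolysosomal transporter needed for TLR7 and TLR9 responses, fell by 1.16 (adjusted p = 7.03e-11) and by 1.57 (adjusted p = 5.13e-12). Without LPS 5 of the 8 were higher in shDCLK1 cells and 0 lower, and with LPS 1 was higher and 1 lower (0 and 6 after median-of-ratios scaling).

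Of 10 endosomal proteases and nucleases, which cleave the endosomal receptors or process their ligands, 9 were tested. LPS raised 7 and lowered 2 in control cells, and raised 6 and lowered 2 in shDCLK1 cells, where median-of-ratios scaling left 1 lowered in each line. Pld3, a nuclease that limits TLR9 ligands, rose by a log2 value of 1.87 in control cells (adjusted p = 7.81e-14) and 1.51 in the shDCLK1 line (adjusted p = 1.04e-12), and Ctsl, a protease, by 1.46 (adjusted p = 8.54e-13) and 1.62 (adjusted p = 5.35e-13). Dnase2a, a lysosomal DNase, fell from 44.3 ± 1.82 to 7.24 ± 0.641 FPKM in control cells (-2.46, adjusted p = 2.39e-13) and changed by -1.87 in shDCLK1 cells (adjusted p = 5.42e-12). Without LPS 8 of the 9 were higher in shDCLK1 cells and 0 lower, with Ctsb at 0.79 (adjusted p = 1.53e-08) and Ctss at 0.54 (adjusted p = 6.02e-09). With LPS 6 were higher and 0 lower, or 1 lower after median-of-ratios scaling. The counts include Rnaset2a and Rnaset2b, near-identical copies whose reads may have been split between them.

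Of 11 TIR adaptors, IRAK kinases and TRAF ligases 10 were tested, and LPS raised 5 and lowered 4 in control cells, and raised 4 and lowered 5 in shDCLK1 cells. The adaptor Myd88 rose from 45.7 ± 0.861 to 95.3 ± 1.41 FPKM in control cells (log2 change 1.04, adjusted p = 1.50e-12) and from 54.8 ± 1.79 to 99.3 ± 1.69 in shDCLK1 cells (0.85, adjusted p = 1.84e-11). Ticam1 (TRIF), the adaptor of TLR3 and of endocytosed TLR4, rose by 1.16 (adjusted p = 3.53e-10) and 1.15 (adjusted p = 5.28e-10), while Ticam2 (TRAM), which bridges TLR4 to TRIF, fell by 1.17 (adjusted p = 4.19e-10) and 1.79 (adjusted p = 8.18e-12). Pik3ap1 and Irak2 had the largest rises of the list in control cells, 1.80 (adjusted p = 1.09e-12) and 1.66 (adjusted p = 8.86e-14). Without LPS 4 of the 10 were higher and 2 lower in shDCLK1 cells, and with LPS 2 were higher (1 after median-of-ratios scaling) and 6 lower.

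Of 9 negative regulators of TLR signalling, LPS raised 3 and lowered 4 in each line, and 5 were raised in each after median-of-ratios scaling. Tnfaip3 (A20), which edits ubiquitin chains below the receptors, went from 7.21 ± 0.201 to 104 ± 1.39 FPKM in control cells (log2 change 3.68, adjusted p = 2.55e-16) and from 7.96 ± 0.413 to 42.5 ± 1.51 in shDCLK1 cells (2.28, adjusted p = 2.92e-14), an interaction of -1.40 (adjusted p = 1.81e-09). Trim30a went from 4.99 ± 0.113 to 91.3 ± 2.13 in control cells (3.95, adjusted p = 4.64e-17) and from 42.8 ± 1.35 to 126 ± 3.68 in shDCLK1 cells (1.54, adjusted p = 2.20e-13), and its excess in untreated shDCLK1 cells (2.87, adjusted p = 2.30e-14) was the largest of the list. Irak3 (IRAK-M), an inhibitory IRAK, was also higher in untreated shDCLK1 cells (0.88, adjusted p = 2.39e-05). Sigirr fell with LPS by 1.99 in control cells (adjusted p = 3.22e-10) and by 1.23 in shDCLK1 cells (adjusted p = 5.60e-08). Il1rl1 (ST2) fell by 0.92 in control cells (adjusted p = 2.74e-08) and changed by 0.01 in shDCLK1 cells (adjusted p = 0.851), with an interaction of 0.93 (adjusted p = 6.20e-06). Of the 9, 5 were higher and 1 lower in shDCLK1 cells without LPS. The same numbers were counted with LPS, though not for all the same genes, and 3 were lower there after median-of-ratios scaling. Tnfaip3 was higher in shDCLK1 than in control cells without LPS (log2 difference 0.13, adjusted p = 0.0210) and lower with LPS (-1.27, adjusted p = 2.12e-10).

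**Figure D4:**
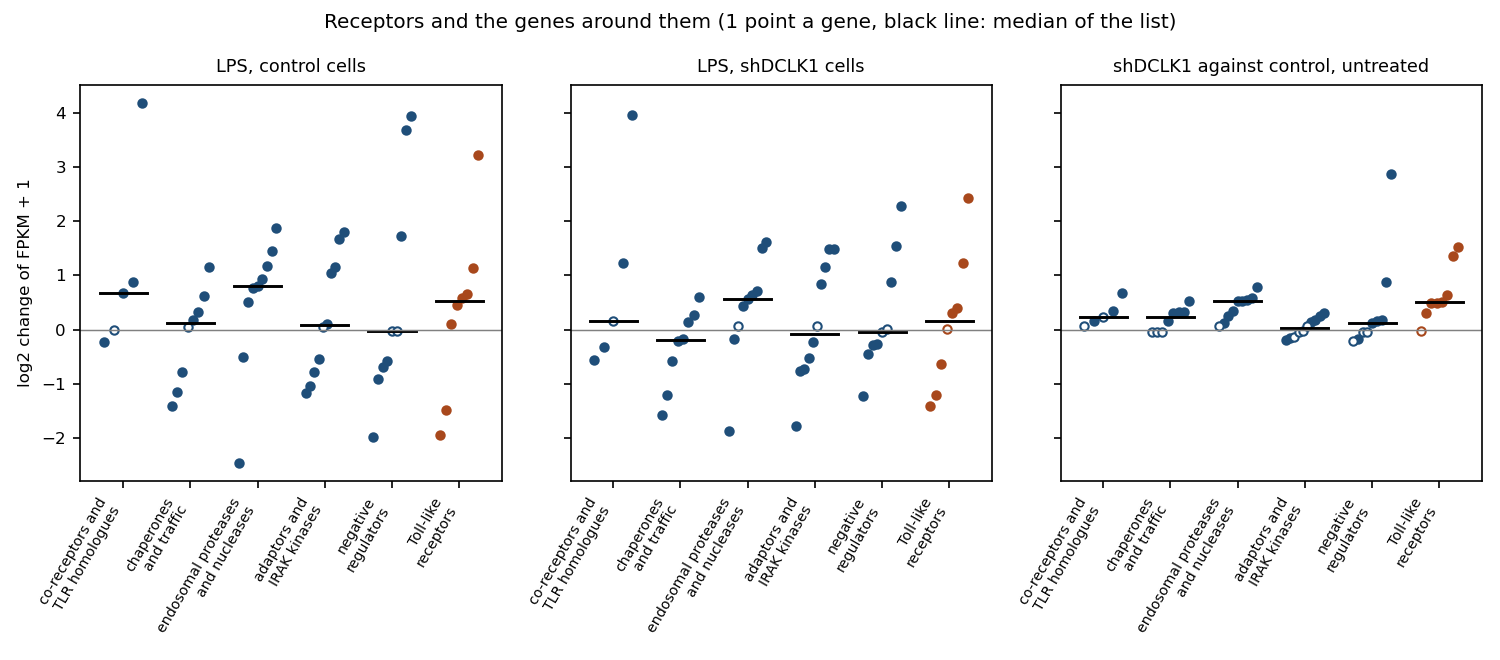
Log2 change of FPKM + 1 (vertical axis) of each tested gene in 5 lists around the receptors (blue) and of the 8 tested receptors (brown), for LPS in control cells, LPS in shDCLK1 cells and the lines without LPS; filled points were called by limma, open points were not, and black lines are medians. Cd14, Tnfaip3, Trim30a and Tlr3 stand above the other genes with LPS in control cells, and Trim30a stands at 2.87 between the untreated lines.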

How the data were processed

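Polyadenylated RNA was sequenced as paired-end libraries, per the labels' protocols. The deposited table holds FPKM per gene and library at 2 decimals, made by the authors. The submitters' processing notes name HISAT2 2.0, StringTie 1.3.0 and Bowtie 0.12.2; how reads shared by genes were assigned is not given in the sources used here. FPKM carry no read totals, so no counting interval is given. One unnamed value column was not used. Symbols turned into dates (27) were restored from gene IDs.

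Groups came from GEO's labels, which give no batch. The 11052 genes that reached 1 FPKM in 3 or more of the 12 libraries were tested with limma 3.58.1 (R 4.3.3; trended eBayes, two-sided, Benjamini-Hochberg adjustment) on log2(FPKM + 1), with 1 mean per group and a called adjusted p under 0.05. The procedure was tested on simulated data. Alternatives were 3 scalings, a pseudocount of 0.1, no filter or 5 FPKM, a replicate block and leaving out each library. Members are named throughout. From the lists, genes were named among the 3 with the largest called change in a comparison, except Ticam1, chosen with its values seen. The members and lists were chosen with earlier results of these data known. Figures used Python 3.11.15 and matplotlib 3.10.9.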

Additional observations from a re-analysis of the deposited data

Results flagged for a closer look

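The LPS responses of the lines differed, by the interaction term of limma, for 4 of the 8 tested receptors (1 positive and 3 negative). Of all genes tested, 32.6% had a called positive and 16.9% a called negative interaction, so about as large a share of all genes was called. The difference on the log2 scale, shDCLK1 minus control, was -1.23 for Tlr7, -0.79 for Tlr3, -0.26 for Tlr1 and 0.73 for Tlr13. The Tlr1 value (adjusted p = 0.0388) missed the threshold without any one of replicates 2 and 3 of the 4 groups (adjusted p from 0.0603 to 0.0927), without a filter on low values (0.0759) and with the replicate block (0.0502). For Tlr7 every treated library lay above every untreated one in control cells and below every untreated one in shDCLK1 cells.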

How the results depend on the processing

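Of the recomputed log2 changes of the members, 720 kept their direction and their side of the threshold, 37 fell short of it and 3 passed it, and none that was called in either setting changed sign. The changes of Tlr3, Tlr7, Tlr9 and Tlr13, and those of Tlr4 other than its interaction, kept their calls under every alternative run. The number of members with a called positive interaction went from 1 to 2 with a pseudocount of 0.1, which added Tlr4, and to 2 without a filter, which added Tlr8. Called members ranged, when single libraries were left out, from 5 to 6 higher with LPS in control cells, 3 to 4 in shDCLK1 cells, 5 to 7 in shDCLK1 against control with LPS and 2 to 3 for negative interactions. The replicate numbers did not pair the libraries: same-numbered libraries correlated at r of -0.107 to 0.0638 in their deviations, and 2 of 12 correlated best with their own number. With the replicate number as a block, 3 members were higher with LPS in shDCLK1 cells, 6 in shDCLK1 against control with LPS, and 2 had a negative interaction. Calls lost there were those of Tlr6 (adjusted p = 0.0545 and 0.0680) and Tlr1 (interaction, 0.0502). The interaction of Tlr2 was -0.19 (adjusted p = 0.00862) after median-of-ratios scaling, and that of Tlr1 missed the threshold without a filter (adjusted p = 0.0759), as did the Tlr6 changes with LPS in shDCLK1 cells (0.0820) and between the lines with LPS (0.106). The cause of these shifts was not tested. Small counts from the lists also moved when 1 library was left out. For shDCLK1 against control with LPS, lower co-receptors went from 2 to 1 without replicate 2 or 3 of the treated control or 3 of the treated shDCLK1 cells. Higher chaperones went from 1 to 2 without replicate 3 of the untreated or 2 of the treated control, or 2 or 3 of the untreated shDCLK1 cells, and lower ones from 1 to 2 without replicate 1 of the treated control or 2 of the treated shDCLK1 cells. Lower proteases and nucleases went from 0 to 1 without replicate 3 of the untreated control or 1 of the treated shDCLK1 cells. Without LPS, lower negative regulators went from 1 to 2 without replicate 2 or 3 of the treated shDCLK1 cells. Tlr8 has no value at the filter used or at 5 FPKM. Without read totals the counting error of low members such as Tlr8 and Tlr4 is unknown.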
